A study of Homo sapiens with 52 samples.

Results

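The genes described here encode the proteins that detect double-stranded RNA and the adaptors and effectors that act directly behind them: RIGI, IFIH1, DHX58, TLR3, MAVS, TBK1, IRF3, EIF2AK2, ADAR and ZC3HAV1. They were taken by gene name from the gene-level files, and these 10 genes of the 78894 genes listed were followed over all 18 groups of the series. RNA-seq of poly(A) RNA was made from 3 human breast cancer cell lines of the claudin-low class, SUM159PT (17 samples), MDA-MB-231 (18 samples) and HS578T (17 samples), to compare cells with and without neuropilin-1 (NRP1), a co-receptor for growth factors and semaphorins. In each line, siNRP1#3 and siNRP1#5 were set against the non-targeting siNT (20 nM siRNA, RNA taken after 72 h), and shNRP1#3 and shNRP1#5 against the non-targeting shNT (lentivirus, puromycin selection, then reseeding). Groups held 3 samples, except SUM159PT siNRP1#5 and HS578T shNRP1#3 with 2 each.

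siNRP1#5 and shNRP1#5 carried the identical targeting sequence, directed at both transmembrane and soluble NRP1, whereas siNRP1#3 and shNRP1#3 differed in sequence and were directed at the transmembrane form. Every siRNA group, siNT included, received a transfected RNA duplex, and every shRNA group, shNT included, carried an integrated lentivirus and had been exposed to puromycin. The shRNA replicates were consecutive passages of transduced cells, so their p-values measured the spread between passages and not between transductions. All values are from cell populations in bulk, in which fewer cells expressing a gene and less RNA of it per cell cannot be told apart.

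As background, RIG-I (RIGI) and MDA5 (IFIH1) are cytoplasmic helicases that bind double-stranded RNA and engage MAVS on mitochondria, LGP2 (DHX58) is a related helicase without a signalling domain that modulates both, and TLR3 senses double-stranded RNA in endosomes. TBK1 is the kinase that phosphorylates the transcription factor IRF3 downstream of these sensors, which leads to transcription of type I and type III interferon genes. PKR (EIF2AK2) halts translation when it binds double-stranded RNA, ADAR1 (ADAR) edits adenosine to inosine in it and limits its detection, and ZAP (ZC3HAV1) is an antiviral zinc finger protein that binds CpG-rich RNA and promotes its decay. Several of these genes are themselves induced by interferon, through response elements in their promoters.

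The promoters of the members were searched for an interferon response motif because several of these genes are induced by interferon. RefSeq promoter entries of 250 bases before to 50 bases after the gene start (build GRCh38.p14) were present for 8 of the 10 genes. The motif GAAANNGAAA, the core of the interferon-stimulated response element, was searched on both strands, and overlapping matches were joined. It was found in entries of 3 members, IFIH1, TLR3 and EIF2AK2, and in 1255 of all 35116 promoter entries (3.57%). The entries of RIGI, MAVS, TBK1, ADAR and ZC3HAV1 held no match, and DHX58 and IRF3 had no entry. RIGI and ZC3HAV1, whose most similar gene further on was IFIT3, were without a match in this window. DHX58, which had MX2 among its most similar genes, could not be searched. The IFIH1 entry (chr2:162318635-162318934, minus strand) held 3 matches, of which 2 overlapped, and the TLR3 entry (chr4:186068906-186069205, plus strand) and the EIF2AK2 entry (chr2:37156931-37157230, minus strand) held 1 each. In the sequences, written 5′ to 3′ on the strand of the gene, capitals mark the matched bases, and a match on the opposite strand reads TTTCNNTTTC. A match is a description of the letters in this window only.
IFIH1: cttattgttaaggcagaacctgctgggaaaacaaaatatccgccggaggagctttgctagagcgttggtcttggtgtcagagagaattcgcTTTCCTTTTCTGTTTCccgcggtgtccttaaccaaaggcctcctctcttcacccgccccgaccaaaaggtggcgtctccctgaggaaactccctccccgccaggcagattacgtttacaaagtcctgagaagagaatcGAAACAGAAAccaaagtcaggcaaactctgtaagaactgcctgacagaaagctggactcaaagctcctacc
TLR3: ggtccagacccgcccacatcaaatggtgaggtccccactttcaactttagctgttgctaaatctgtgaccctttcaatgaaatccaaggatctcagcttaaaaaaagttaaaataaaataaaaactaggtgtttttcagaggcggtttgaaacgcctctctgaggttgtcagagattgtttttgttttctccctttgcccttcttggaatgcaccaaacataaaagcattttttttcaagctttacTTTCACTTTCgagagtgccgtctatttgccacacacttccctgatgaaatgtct
EIF2AK2: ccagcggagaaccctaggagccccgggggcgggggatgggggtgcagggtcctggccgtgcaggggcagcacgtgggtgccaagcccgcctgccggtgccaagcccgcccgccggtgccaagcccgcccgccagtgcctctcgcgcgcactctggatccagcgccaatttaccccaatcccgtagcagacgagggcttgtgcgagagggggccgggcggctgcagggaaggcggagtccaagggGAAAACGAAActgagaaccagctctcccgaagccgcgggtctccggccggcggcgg

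Positions are given from the GENCODE release 44 annotation of GRCh38, while the deposited files name Ensembl release 114. The 4 sensors were annotated at chr9:32455302-32526208 (RIGI, minus strand), chr2:162267074-162318684 (IFIH1, minus strand), chr17:42101404-42112714 (DHX58, minus strand) and chr4:186068911-186088073 (TLR3, plus strand). MAVS lay at chr20:3846799-3876123 on the plus strand, TBK1 at chr12:64452090-64502114 on the plus strand and IRF3 at chr19:49659569-49665875 on the minus strand. EIF2AK2 lay at chr2:37099210-37157522, ADAR at chr1:154581695-154628013 and ZC3HAV1 at chr7:139043515-139132122, all on the minus strand.

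Library totals ranged from 25310443 to 72003442 expected counts (median 44804505). NRP1 itself was lower than in its NT control in all 12 knockdown groups on the log2 scale, from -0.70 in MDA-MB-231 siNRP1#3 to -4.88 in MDA-MB-231 siNRP1#5, and 11 of the 12 were called at an adjusted p of 0.05 (edgeR quasi-likelihood test). The exception was HS578T shNRP1#3 (-1.59, adjusted p = 0.069). In MDA-MB-231 siNRP1#3, NRP1 TPM ranged from 24.8 to 31.3, overlapping the siNT range of 25.6 to 31.6, although its CPM was lower. VIM, a mesenchymal filament gene, was at 1311 to 6093 TPM in all samples, and ESR1 and PGR were at or near 0, but CLDN4, a claudin that the claudin-low label would lead one to find low, was at 62.6 to 226 TPM in MDA-MB-231. In the same line CLDN7 was at 10.4 to 61.5 TPM and CLDN3 at 2.87 to 13.4 TPM, whereas CDH1 was at most 3.33 TPM. ERBB2, which encodes HER2, was detected in every sample, with medians of 31.8 (SUM159PT), 33.2 (MDA-MB-231) and 13 TPM (HS578T).

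The HS578T siNRP1#5 libraries stood apart. Genes nearly silent in the HS578T controls and high in MDA-MB-231 (59 genes) were present in them at 26.1%, 20.1% and 14% of their MDA-MB-231 siNT level, against 0.745% to 2.31% in HS578T siNT and 2.85% to 7.56% in HS578T siNRP1#3. Replicate 2 also held 8.03% of the SUM159PT level of 70 SUM159PT marker genes. The calls of the 10 genes in HS578T siNRP1#5 are therefore given as measured and again after subtraction of the counts that such a share of MDA-MB-231 reads would bring. Whether cells, RNA or reads of the other line were the source of the marker reads was not tested.

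In the NT controls, IRF3 had the highest level per length of the 10 genes in all 3 lines, with a mean TPM (± SD, n = 6) of 86.4 ± 11.2 (SUM159PT), 90.1 ± 15.5 (MDA-MB-231) and 142 ± 16.6 (HS578T). ADAR followed in each line, at 45.5 ± 10.9, 56.7 ± 12.8 and 21.4 ± 2.65 TPM. The sensors were lower than both. In the same order of lines, RIGI was at 9.91 ± 7.14, 20.7 ± 7.52 and 0.463 ± 0.231 TPM, and IFIH1 at 5.9 ± 3.43, 4.5 ± 1.08 and 0.26 ± 0.213. DHX58 was at 11.2 ± 4.86, 7.74 ± 1.08 and 1.25 ± 0.656 TPM, and TLR3 at 6.75 ± 5.18, 2.21 ± 0.478 and 0.198 ± 0.0739. Thus the 4 sensors were the lowest members in HS578T, and their HS578T samples did not overlap those of the other lines. Among the remaining genes, MAVS was at 16.8 ± 2.76, 24.4 ± 5.15 and 12.5 ± 5.83 TPM, TBK1 at 14.3 ± 8.35, 11.5 ± 1.75 and 4.93 ± 4.04, and EIF2AK2 at 10.4 ± 3.53, 14.6 ± 2.08 and 5.35 ± 1.98. ZC3HAV1 was at 39 ± 12.9, 24.3 ± 3.56 and 4.04 ± 1.06 TPM. Neighbours in these orders overlapped in places, for example TBK1 and MAVS in SUM159PT.

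**Figure D1:**
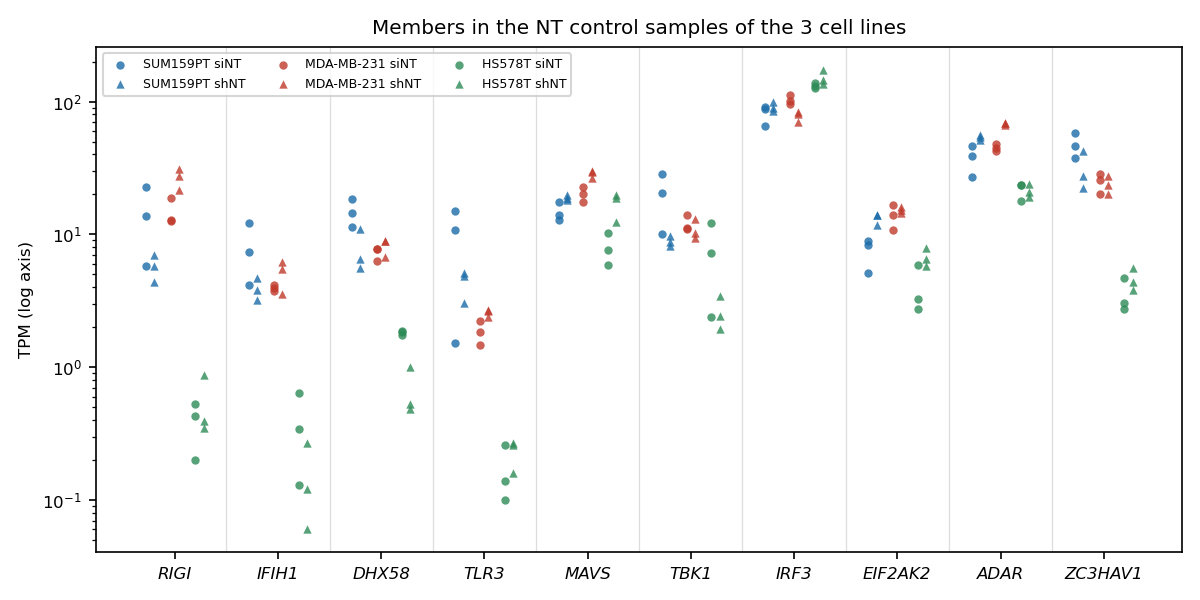
Level of each of the 10 genes in the NT control samples, as TPM on a log axis, 1 symbol per sample (circles siNT, triangles shNT; 3 of each per line). The 4 sensors RIGI, IFIH1, DHX58 and TLR3 sit lower in HS578T than in SUM159PT and MDA-MB-231 in every control sample, whereas IRF3 sits highest in HS578T.

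The lines were compared with a fit over all 52 samples, in which the mean of siNT and shNT of one line was set against that of another. HS578T differed from MDA-MB-231 in 9 of 10 genes, where 70.2% of all 23416 genes tested were called, and from SUM159PT in 9 of 10, where 63.5% were called. On the log2 scale RIGI was lower in HS578T than in MDA-MB-231 by -4.96 (SE 0.30, adjusted p = 4.17e-18), and the corresponding differences of IFIH1, TLR3 and DHX58 were -3.60, -3.15 and -1.82. Against SUM159PT, the 4 differences were -4.13 for RIGI, -4.26 for IFIH1, -4.99 for TLR3 and -2.79 for DHX58. IRF3 was the only member higher in HS578T, by 1.32 against MDA-MB-231 and 1.03 against SUM159PT. MAVS was the gene not called in either comparison (-0.28, adjusted p = 0.107, and -0.13, adjusted p = 0.49). TBK1 was called against MDA-MB-231 at an adjusted p of 0.0441 (-0.72), and this call was lost without replicate 2 (-0.73, adjusted p = 0.0634) or replicate 3 (-0.59, adjusted p = 0.164) of all groups, with RLE size factors (-0.65, adjusted p = 0.0614) and in DESeq2 (-0.65, adjusted p = 0.0524). Without replicate 3, EIF2AK2 was no longer called between HS578T and SUM159PT either (-0.45, adjusted p = 0.0994, against -0.69, adjusted p = 0.00164, with it). SUM159PT and MDA-MB-231 differed in 4 of 10 genes (59.4% of all genes): RIGI was lower in SUM159PT (-0.83, adjusted p = 0.00391), and DHX58 (0.97), TLR3 (1.84) and ZC3HAV1 (0.92) were higher. In HS578T as few as 30 expected counts stood behind a RIGI value and 5 behind an IFIH1 or a TLR3 value, so changes of these genes within that line were measured with little precision.

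Within each line, all 10 genes passed the filter on low counts. Over the 12 knockdown groups, 22 of 120 values were called against the matching NT control, 20 of them lower and 2 higher, where 11.3% of all gene values in these comparisons were called. The siRNA groups gave 19 of the calls (60 values, against 17.3% of all gene values). The shRNA groups gave 3 (60 values), near the 5.34% of all gene values. Both knockdown groups of a modality shared their NT control samples, so the 12 comparisons were not independent of each other. The accounts of single genes that follow use TMM-normalised CPM (counts scaled to the library size) for one gene between samples, and log2 fold changes from the count fit. Wherever groups are said not to overlap, the share of all genes without overlap was not counted, so this describes the samples and is no test.

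**Figure D2:**
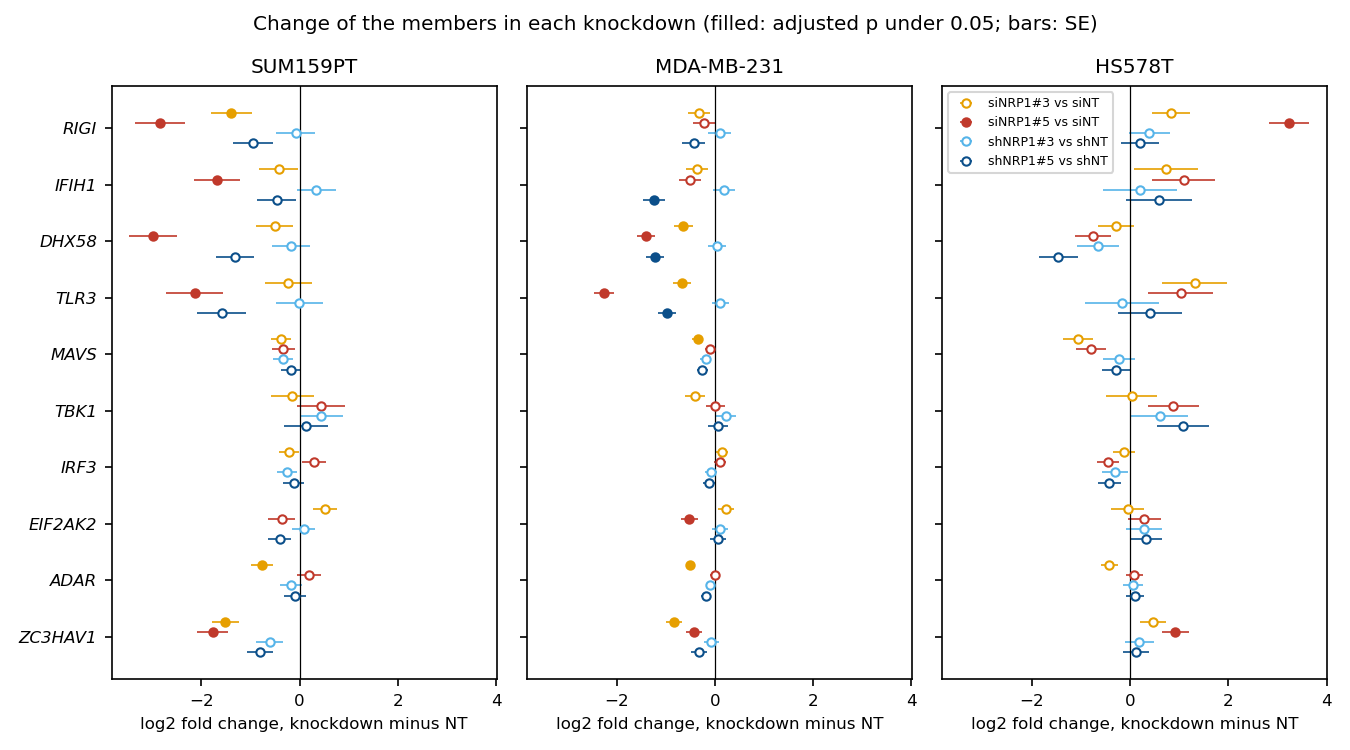
Log2 fold change of each gene in the 12 knockdown groups against the matching NT control, with bars of 1 SE from the edgeR fit and filled symbols for adjusted p under 0.05. DHX58 lies below 0 in 11 of 12 groups, MAVS in 12 of 12, and RIGI runs from -2.84 in SUM159PT siNRP1#5 to 3.24 in HS578T siNRP1#5.

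In SUM159PT, siNRP1#5 lowered 5 of the 10 genes (17.9% of all 20067 genes tested were called), with a median log2 fold change of -1.02 over the 10 genes against 0.01 over all genes. RIGI was at 79.4, 24.4 and 46.4 CPM in siNT and at 9.81 and 4.03 CPM in siNRP1#5. Both knockdown samples were below all controls, although the controls spanned more than 3-fold, and the change was -2.84 (SE 0.51, adjusted p = 0.00202). DHX58 was at 23.8, 32.7 and 18.1 CPM in siNT and at 4.09 and 2.2 in siNRP1#5, again without overlap (-2.98, SE 0.49, adjusted p = 0.00122). IFIH1 fell from 31.1, 11.5 and 17.2 CPM to 9.23 and 3.1 CPM (-1.68, SE 0.47, adjusted p = 0.0228). TLR3 was at 29.8, 5.5 and 21.9 CPM in siNT and at 6.48 and 2.08 CPM in siNRP1#5 (-2.14, SE 0.58, adjusted p = 0.0198), and the groups overlapped because siNT replicate 2 was low. ZC3HAV1 fell from 234, 138 and 167 CPM to 52.4 and 52.1 CPM (-1.77, SE 0.32, adjusted p = 0.00191). The other 5 genes, MAVS, TBK1, IRF3, EIF2AK2 and ADAR, were not called, with changes from -0.37 to 0.43, and ADAR stood at 158 and 296 CPM in the 2 knockdown samples. None of the 5 calls held when only these 5 libraries were fitted (adjusted p = 0.0523 to 0.173, with the fold changes nearly the same). Without siNRP1#5 replicate 3, which leaves 1 knockdown sample assumed to vary like the other groups, IFIH1 (-1.09, adjusted p = 0.17) and TLR3 (-1.54, adjusted p = 0.144) were no longer called, and without siNT replicate 1 they were at -1.22 (adjusted p = 0.0925) and -1.68 (adjusted p = 0.071).

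siNRP1#3 in SUM159PT lowered 3 of the 10 genes (8.66% of all genes), and the median over the 10 was -0.41. ZC3HAV1 went from 234, 138 and 167 CPM to 73.1, 63.6 and 52 CPM (-1.51, SE 0.27, adjusted p = 0.00296), a call that held in each of the 13 alternative fits. ADAR was at 205, 164 and 229 CPM in siNT and within a narrow range of 114 to 119 CPM in siNRP1#3 (-0.77, SE 0.22, adjusted p = 0.043). RIGI was at 25.3, 17 and 14.6 CPM, overlapping siNT (-1.39, SE 0.41, adjusted p = 0.0449), and without siNT replicate 1 its change was -0.90 (adjusted p = 0.189). The RIGI call was also lost without siNT replicate 3 (adjusted p = 0.0724) and without siNRP1#3 replicate 1, 2 or 3 (0.0722, 0.116 and 0.154). The ADAR call too was lost without siNT replicate 1 (adjusted p = 0.0881) or replicate 3 (0.116), and without any 1 of the siNRP1#3 samples (0.0914 to 0.138). With the GC score described further on as a covariate, ADAR was at -0.76 (adjusted p = 0.0513). DHX58 (-0.51), IFIH1 (-0.43) and TLR3 (-0.23) were not called.

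The difference between both siRNAs in SUM159PT was itself tested, and 5 of 10 genes were called (29.7% of all genes). DHX58 (-2.48, adjusted p = 0.00138), TLR3 (-1.91, adjusted p = 0.0209), RIGI (-1.45, adjusted p = 0.0314) and EIF2AK2 (-0.88, adjusted p = 0.0227) were lower with siNRP1#5 than with siNRP1#3, and ADAR was higher (0.96, adjusted p = 0.00873). Without siNRP1#5 replicate 3 only DHX58 remained called of these 5 genes, with ADAR at 0.46 (adjusted p = 0.217), RIGI at -0.93 (adjusted p = 0.252), TLR3 at -1.29 (adjusted p = 0.177) and EIF2AK2 at -0.77 (adjusted p = 0.124). Without siNRP1#3 replicate 1, RIGI (-1.19, adjusted p = 0.102) and EIF2AK2 (-0.79, adjusted p = 0.0692) were not called.

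The shRNA groups of SUM159PT gave no call among the 10 genes. With shNRP1#3, 0 of 10 passed in edgeR (1 with an unadjusted p under 0.05, 0 in DESeq2), where 1.4% of all genes were called, and the interval of RIGI ran from -0.87 to 0.71. With shNRP1#5, 0 of 10 passed in edgeR (5.94% of all genes; 4 with an unadjusted p under 0.05), and DESeq2 called 2, DHX58 and TLR3. TLR3 was at 10.5, 9.85 and 6.62 CPM in shNT and at 3.42, 2.93 and 2.44 CPM in shNRP1#5 (-1.59, SE 0.50, adjusted p = 0.0731), and DHX58 at 9.19, 14.1 and 7.69 against 6.39, 3.03 and 2.74 CPM (-1.32, SE 0.39, adjusted p = 0.0566). Neither pair of groups overlapped, nor did those of RIGI (-0.95, adjusted p = 0.217) and ZC3HAV1 (-0.81, adjusted p = 0.0873). The share of all genes without overlap was not counted, so the lack of overlap is a description and not a test. Between shNRP1#5 and shNRP1#3, 0 of 10 passed in edgeR (8.71% of all genes; 3 with an unadjusted p under 0.05) and DESeq2 called 2, DHX58 (-1.11, adjusted p = 0.0484) and TLR3 (-1.56, adjusted p = 0.0165).

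**Figure D3:**
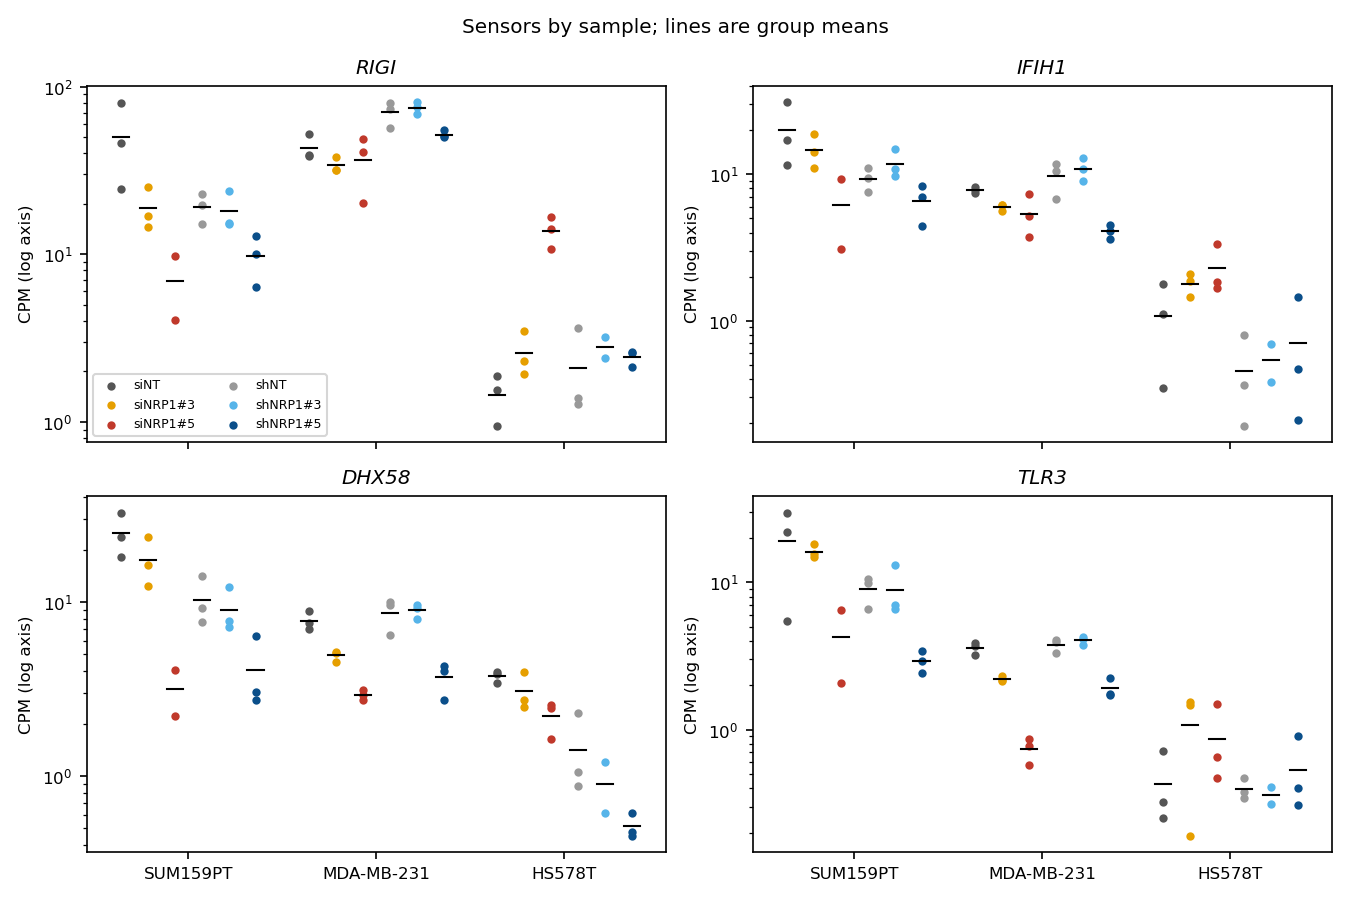
CPM of RIGI, IFIH1, DHX58 and TLR3 in every sample by cell line and group, on log axes, with horizontal lines for group means. In SUM159PT the 2 siNRP1#5 samples lie at 4.03 and 9.81 CPM for RIGI, and in MDA-MB-231 the 3 siNRP1#5 samples of TLR3 lie between 0.577 and 0.863 CPM, below all other samples of the line.

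In MDA-MB-231, siNRP1#5 lowered 4 of the 10 genes (29.4% of all 18800 genes tested), a share near that of all genes, with a median of -0.32. TLR3 was at 3.86, 3.19 and 3.68 CPM in siNT and at 0.772, 0.863 and 0.577 CPM in siNRP1#5. The knockdown samples were all below every control, and the change of -2.26 (SE 0.20, adjusted p = 9.23e-08) was the largest of a member in this line. DHX58 was at 7.56, 8.87 and 6.97 CPM in siNT and at 2.92, 3.12 and 2.72 CPM (-1.40, SE 0.19, adjusted p = 2.39e-05). Both calls held in each of the 13 alternative fits. EIF2AK2 (50.9, 39.6 and 45.2 against 40.3, 30.5 and 22.7 CPM) and ZC3HAV1 (84.6, 79.8 and 60 against 64.8, 55.9 and 44.8 CPM) overlapped between the groups. Their changes were -0.52 (SE 0.17, adjusted p = 0.0237) and -0.42 (SE 0.16, adjusted p = 0.0496). Without siNRP1#5 replicate 2 they were at -0.52 (adjusted p = 0.0612) and -0.44 (adjusted p = 0.0846), and ZC3HAV1 was also lost without siNT replicate 2 (-0.39, adjusted p = 0.128). Without siNRP1#5 replicate 3, EIF2AK2 was at -0.33 (adjusted p = 0.102) and ZC3HAV1 at -0.28 (adjusted p = 0.185), and without siNT replicate 1 they were at -0.41 (adjusted p = 0.115) and -0.31 (adjusted p = 0.213). With RLE size factors ZC3HAV1 was at -0.40 (adjusted p = 0.0526). RIGI, at 52.3, 38.4 and 38.9 CPM in siNT and 48.4, 40.8 and 20.2 CPM in siNRP1#5, was not called (-0.22, 95% interval -0.67 to 0.23).

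siNRP1#3 in MDA-MB-231 lowered 5 of 10 genes (25.7% of all genes), with a median of -0.39. ADAR was at 191, 196 and 177 CPM in siNT and at 122, 125 and 146 CPM in siNRP1#3 (-0.50, SE 0.09, adjusted p = 0.000712), whereas siNRP1#5 left it at 187, 175 and 197 CPM (change 0, 95% interval -0.18 to 0.19). ZC3HAV1 was at 42.6, 43.5 and 38 CPM (-0.83, SE 0.16, adjusted p = 0.000722), below all controls. TLR3, at 2.15, 2.19 and 2.3 CPM, fell by less than with siNRP1#5 (-0.67, SE 0.18, adjusted p = 0.00942), and so did DHX58 (5.08, 4.53 and 5.18 CPM, -0.64, SE 0.19, adjusted p = 0.0175). MAVS was at 169, 164 and 141 CPM in siNT and at 129, 114 and 122 CPM in siNRP1#3 (-0.35, SE 0.11, adjusted p = 0.0247), its only call in a knockdown. The ADAR and ZC3HAV1 calls held in all 13 alternative fits and the MAVS call in 8 of 13. MAVS was not called without siNRP1#3 replicate 2 (adjusted p = 0.0912) or 3 (0.0571) or without siNT replicate 1 (0.112) or 2 (0.0693), nor DHX58 without siNRP1#3 replicate 2 (0.0686) or siNT replicate 2 (0.074).

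Tested directly, siNRP1#5 and siNRP1#3 differed in 5 of 10 genes in MDA-MB-231 (39% of all genes). TLR3 (-1.58, adjusted p = 4.1e-06), DHX58 (-0.76, adjusted p = 0.00445) and EIF2AK2 (-0.75, adjusted p = 0.00135) were lower with siNRP1#5. ADAR (0.50, adjusted p = 0.000299) and ZC3HAV1 (0.41, adjusted p = 0.0432) were higher with siNRP1#5, and the ZC3HAV1 difference was called in 7 of 13 alternative fits. Without siNRP1#5 replicate 1 it was 0.29 (adjusted p = 0.149), and it was also lost without siNRP1#5 replicate 2 (0.0968) and without siNRP1#3 replicate 1, 2 or 3 (0.0751, 0.0694 and 0.138). DHX58, TLR3 and EIF2AK2 were thus called lower, and ADAR higher, with siNRP1#5 than with siNRP1#3 in SUM159PT as well as in MDA-MB-231. In SUM159PT, however, EIF2AK2 and ADAR were not called when only the groups compared were fitted in edgeR (adjusted p = 0.055 and 0.0602). Without siNRP1#5 replicate 3, TLR3, EIF2AK2 and ADAR were there at -1.29, -0.77 and 0.46.

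shNRP1#5 in MDA-MB-231 gave the 3 shRNA calls of the series, all in sensors (3 of 10 genes, against 20.7% of all genes), with a median of -0.29 over the 10. IFIH1 went from 11.7, 6.8 and 10.5 CPM in shNT to 4.11, 4.5 and 3.63 CPM (-1.24, SE 0.22, adjusted p = 0.000906). DHX58 went from 9.95, 6.45 and 9.55 CPM to 4.31, 3.99 and 2.75 CPM (-1.22, SE 0.19, adjusted p = 0.000238), and TLR3 from 4.04, 3.32 and 3.92 CPM to 2.26, 1.74 and 1.73 CPM (-0.97, SE 0.18, adjusted p = 0.000911). None of the 3 overlapped between the groups, which is a description only. Each call held in the 13 alternative fits. With shNRP1#3, 0 of 10 genes passed in edgeR (3.65% of all genes; 0 with an unadjusted p under 0.05, 0 in DESeq2), and DHX58 was at 9.67, 7.99 and 9.19 CPM (0.05, 95% interval -0.31 to 0.41). Replicate 3 of that group held 2.47% of the SUM159PT and 2% of the HS578T marker level, whose part in these values was not tested. Against shNRP1#3, shNRP1#5 was lower in the same 3 sensors (3 of 10, 14.2% of all genes): IFIH1 -1.42 (adjusted p = 0.000493), DHX58 -1.28 (adjusted p = 0.000276) and TLR3 -1.08 (adjusted p = 0.000597).

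**Figure D4:**
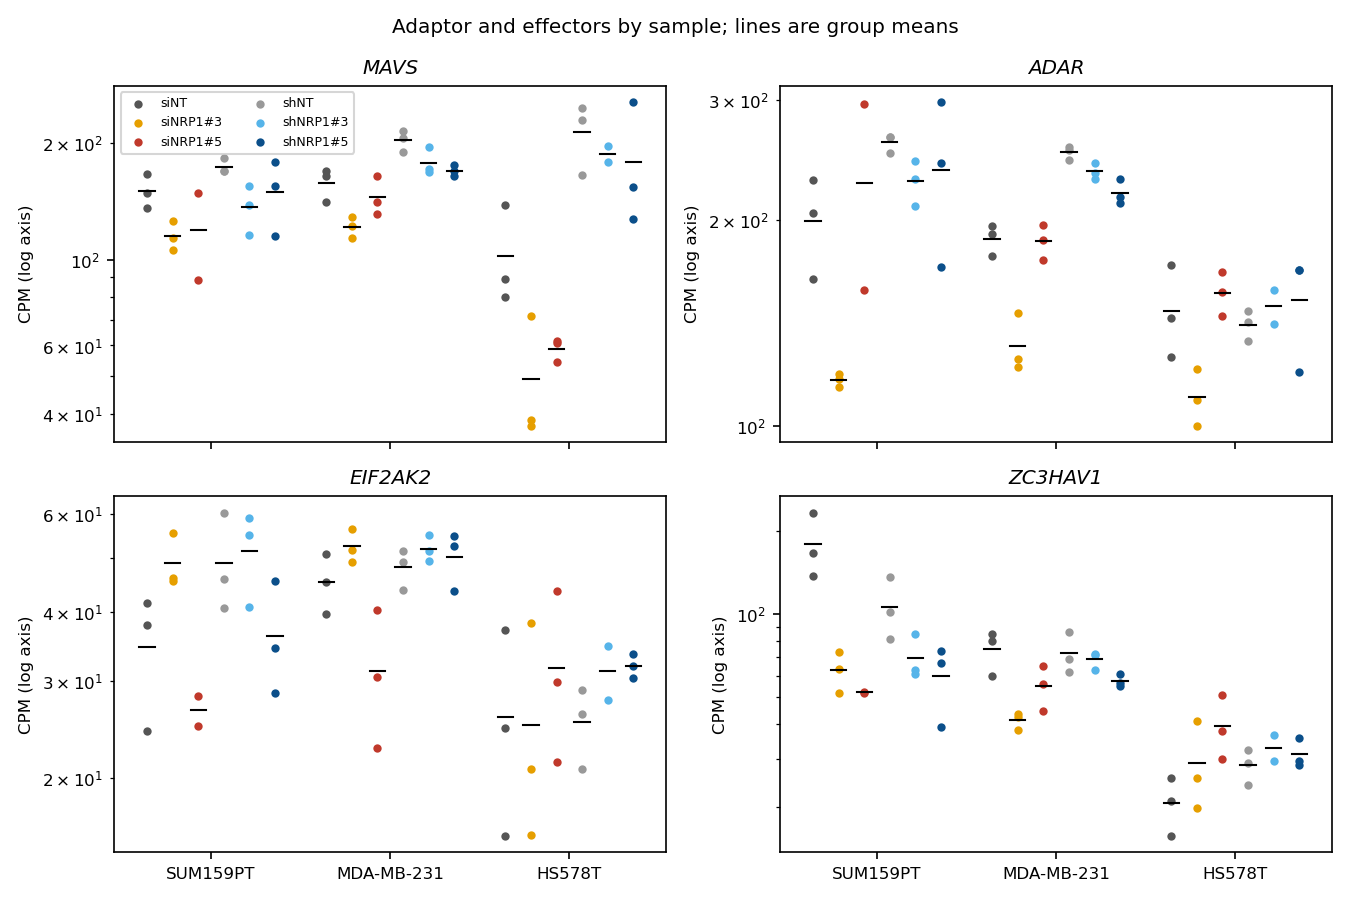
CPM of MAVS, ADAR, EIF2AK2 and ZC3HAV1 in every sample by cell line and group, on log axes, with horizontal lines for group means. ADAR is lower in the siNRP1#3 samples (114 to 119 CPM in SUM159PT, 122 to 146 CPM in MDA-MB-231) than in the siNT samples of both lines, but not in siNRP1#5.

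In HS578T, siNRP1#3 gave 0 calls among the 10 genes in edgeR (4.65% of all 19661 genes tested; 3 members with an unadjusted p under 0.05), and DESeq2 called 1, MAVS. MAVS was at 89.3, 79.9 and 138 CPM in siNT and at 38.5, 37.2 and 71.6 CPM in siNRP1#3, without overlap (-1.06, SE 0.30, adjusted p = 0.0526). MAVS was at 54.4, 60.9 and 61.5 CPM in siNRP1#5 (-0.80, adjusted p = 0.0705). ADAR was at 144, 126 and 172 CPM in siNT and at 99.9, 121 and 109 CPM in siNRP1#3, lower as in the other lines but not called. It was at 145, 168 and 157 CPM in siNRP1#5. As measured, siNRP1#5 raised 2 of 10 genes in HS578T (18.7% of all genes), RIGI and ZC3HAV1, with a median of 0.59 over the 10. RIGI was at 1.55, 1.87 and 0.946 CPM in siNT and at 14.1, 16.6 and 10.7 CPM in siNRP1#5 (3.24, SE 0.41, adjusted p = 0.000151), and at 2.32, 3.48 and 1.93 CPM in siNRP1#3. ZC3HAV1 was at 25.5, 21.1 and 15.7 CPM in siNT and at 37.8, 50.9 and 29.9 CPM in siNRP1#5 (0.92, SE 0.27, adjusted p = 0.0272). The ZC3HAV1 call was lost without siNRP1#5 replicate 1 (adjusted p = 0.0518) or 2 (0.125) and without siNT replicate 2 (0.0778) or 3 (0.112).

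These are the libraries with MDA-MB-231 marker reads, a line in which RIGI was at 43.2 ± 7.9 CPM in siNT (SD, n = 3). The marker shares would bring 11.3, 8.68 and 6.04 CPM of RIGI to the 3 siNRP1#5 samples, which is 80%, 52.1% and 56.3% of the measured values. The remainder was 2.82, 7.96 and 4.69 CPM, against -0.0513 to 1.37 CPM in siNT after the same subtraction. With MDA-MB-231 reads subtracted, RIGI was no longer called (2.92, adjusted p = 0.0648), nor with SUM159PT reads subtracted too (2.11, adjusted p = 0.277). ZC3HAV1 was then at 0.66 (adjusted p = 0.191) and 0.60 (adjusted p = 0.22). DHX58 and MAVS, not called as measured, were called lower after subtraction of MDA-MB-231 reads, at -2.12 (adjusted p = 0.00569) and -1.57 (adjusted p = 0.011), and after subtraction of both at -2.99 (adjusted p = 0.00119) and -1.87 (adjusted p = 0.0116). The subtracted values depend on the marker share and on the siNT level of the other line, and the siNRP1#5 level of that line was not used. Against siNRP1#3, RIGI was the 1 gene of 10 called in edgeR (18.1% of all genes; 2.41, adjusted p = 0.00114), and it was not called after either subtraction (2.61, adjusted p = 0.0847, and 1.83, adjusted p = 0.342). As measured, DESeq2 also called ADAR higher with siNRP1#5 than with siNRP1#3 (0.49, adjusted p = 0.0266).

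**Figure D5:**
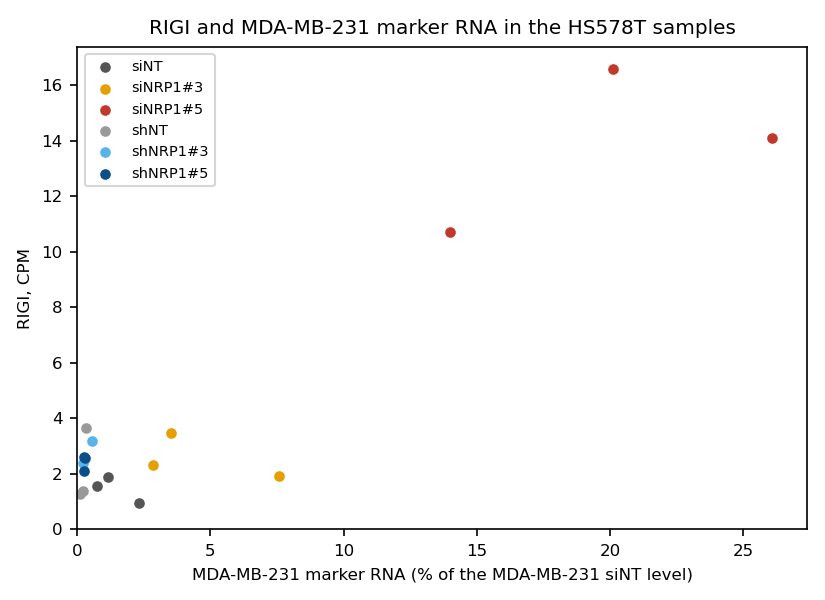
RIGI CPM in the HS578T samples against the level of MDA-MB-231 marker genes, as a percent of their level in MDA-MB-231 siNT, 1 point per sample. The 3 siNRP1#5 samples lie at 14% to 26.1% and 10.7 to 16.6 CPM, apart from every other HS578T sample in both measures.

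The shRNA groups of HS578T gave no call among the 10 genes. For shNRP1#3, with 2 samples, 0 of 10 passed in edgeR (0.0356% of all genes; 0 with an unadjusted p under 0.05, 0 in DESeq2). For shNRP1#5, 0 of 10 passed in edgeR (0.946% of all genes; 1 with an unadjusted p under 0.05) and DESeq2 called 1, DHX58. DHX58 was at 2.29, 0.88 and 1.05 CPM in shNT and at 0.616, 0.45 and 0.475 CPM in shNRP1#5, without overlap (-1.46, SE 0.39, adjusted p = 0.0813). Samples with the same replicate number deviated together in this comparison, and with the replicate block DHX58 was called (-1.40, adjusted p = 0.0486). Between shNRP1#5 and shNRP1#3, 0 of 10 passed in edgeR (0.544% of all genes; 0 with an unadjusted p under 0.05, 0 in DESeq2).

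Across the series, DHX58 was below its NT control in 6 of 6 groups with sequence 5, from -2.98 to -0.76, and 3 of these were called: SUM159PT siNRP1#5, MDA-MB-231 siNRP1#5 and MDA-MB-231 shNRP1#5. It was also lower with sequence 5 than with the #3 reagent in 6 of 6 comparisons (-2.48 to -0.47), of which 3 were called. MAVS was below its control in 12 of 12 groups, from -1.06 to -0.10, with 1 call. TBK1 (-0.41 to 1.08) and IRF3 (-0.45 to 0.29), the kinase and the transcription factor downstream of the sensors, had 0 calls in 12 edgeR comparisons.

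Whether the knockdown changes were equal in the 3 lines was tested with an F test over all 52 samples. For siNRP1#5, 5 of 10 genes differed between the lines (18.2% of all genes): RIGI (adjusted p = 5.49e-09), ZC3HAV1 (4.72e-06), TLR3 (0.00124), DHX58 (0.00441) and IFIH1 (0.0129). For siNRP1#3, 2 of 10 differed (3.42% of all genes), ZC3HAV1 (0.0011) and RIGI (0.029). For shNRP1#3 and shNRP1#5, 0 of 10 did in edgeR (0.747% and 3.81% of all genes; 0 and 3 with an unadjusted p under 0.05, and 0 in DESeq2 for both). Without replicate 1, 2 or 3 of all groups, RIGI with siNRP1#3 was no longer called (0.315, 0.198 and 0.151), ZC3HAV1 with siNRP1#3 was lost without replicate 1 (0.102) or 2 (0.0582), IFIH1 with siNRP1#5 without replicate 2 (0.0662) or 3 (0.188), and DHX58 with siNRP1#5 without replicate 3 (0.0678). With HS578T left out, because of the libraries described above, 2 of 10 differed for siNRP1#5 (3.67% of all genes) and 0 of 10 for siNRP1#3 (0.758%). RIGI then fell further in SUM159PT than in MDA-MB-231 with siNRP1#5, by a difference of -2.69 (SE 0.54, adjusted p = 0.00502), and ZC3HAV1 by -1.42 (SE 0.34, adjusted p = 0.0161). The changes of TLR3 in both lines were similar in size, with a difference of 0.04 (adjusted p = 1), and DHX58 (-1.66, adjusted p = 0.0509) and IFIH1 (-1.24, adjusted p = 0.175) were not called.

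The NT controls of both modalities differed as well. Delivery, selection, time after seeding and control sequence changed together between shNT and siNT and cannot be told apart. In SUM159PT, 2 of 10 genes were lower in shNT (14.4% of all genes), RIGI at 19.6, 22.9 and 15.1 CPM (-1.40, adjusted p = 0.0327) and DHX58 (-1.30, adjusted p = 0.0345). Without siNT replicate 1, RIGI was at -0.91 (adjusted p = 0.166) and DHX58 at -1.34 (adjusted p = 0.0758). Both were also lost without shNT replicate 1 (adjusted p = 0.0884 and 0.109) or 3 (0.14 and 0.15), and DHX58 without siNT replicate 2 (0.114). In MDA-MB-231, 4 of 10 differed (20.6% of all genes). IRF3 fell from 71.7, 78.5 and 71.4 CPM in siNT to 49.9, 45.7 and 52.9 CPM in shNT (-0.61, adjusted p = 0.00191), whereas ADAR (0.39, adjusted p = 0.00587), MAVS (0.34, adjusted p = 0.0375) and RIGI (0.67, adjusted p = 0.0442) were higher in shNT. The IRF3 and ADAR calls held in all 13 alternative fits. RIGI was lost without shNT replicate 1 (0.115) or 3 (0.159) or siNT replicate 2 (0.158) or 3 (0.128), and MAVS without shNT replicate 2 (0.13) or 3 (0.1) or siNT replicate 2 (0.0802) or 3 (0.151). In HS578T, 2 of 10 differed (17.9% of all genes), DHX58 lower (-1.39, adjusted p = 0.018) and MAVS higher (1.08, adjusted p = 0.0203) in shNT. MAVS was not called there after subtraction of MDA-MB-231 reads (1.08, adjusted p = 0.0584), nor without shNT replicate 2 (0.0778) or 3 (0.0703) or siNT replicate 1 (0.0779) or 2 (0.0983). DHX58 was lost without shNT replicate 2 (0.0843) or 3 (0.0857) or siNT replicate 2 (0.0581).

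The changes of other genes of the pathway were counted in 5 lists, which were chosen with earlier results of these data known. Of 18 interferon-stimulated genes, 17 were tested in SUM159PT and MDA-MB-231 and 16 in HS578T. In SUM159PT siNRP1#5, 8 fell and 0 rose (17.9% of all genes were called), with a median of -1.76 against 0.01 for all genes, led by IFIT2 (-2.69), IFIT3 (-2.56) and HERC5 (-2.54). Between the controls of that line, 8 were also lower in shNT than in siNT and 0 higher (14.4% of all genes, median -1.25). These included CXCL10 (-4.11), CCL5 (-2.32) and IFIT2 (-2.14). The siRNA falls in SUM159PT were thus measured from a siNT group higher than shNT in these genes. In MDA-MB-231, 10 fell and 0 rose with siNRP1#3 (25.7% of all genes, median -0.74), led by IFIT1 (-2.12), SAMD9L (-1.99) and IFIT2 (-1.65), and 9 fell and 0 rose with shNRP1#5 (20.7% of all genes, median -0.84), led by MX2 (-1.88). With siNRP1#5 in MDA-MB-231 4 fell and 1 rose, a share near the 29.4% of all genes (median -0.17), so that there DHX58 and TLR3 were lower while the median of these genes was near 0. In SUM159PT siNRP1#3, 3 fell and 0 rose (8.66% of all genes, median -0.82). In HS578T siNRP1#5, as measured in the libraries with MDA-MB-231 marker reads, 8 rose and 1 fell (18.7% of all genes, median 1.64), led by HERC5 (4.08), IFIT2 (2.90) and IFIT3 (2.53). In the other shRNA groups, 1 fell with shNRP1#5 in SUM159PT (MX2, -2.19), near the 5.94% of all genes. The median there was nevertheless -0.86, against 0.03 for all genes. With shNRP1#5 in HS578T, 1 fell (MX2, -1.81, where 0.946% of all genes were called), with a median of -0.02. With shNRP1#3, 0 were called in any line, with medians of -0.2 (SUM159PT), -0.01 (MDA-MB-231) and 0.13 (HS578T).

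Of 12 genes of interferon receptor signalling, 8 fell and 0 rose in SUM159PT siNRP1#5 (17.9% of all genes, median -0.98), among them STAT2 (-2.65), IFNLR1 (-1.80) and IFNAR2 (-1.56). Between the SUM159PT controls, 4 were lower in shNT than in siNT and 0 higher (14.4% of all genes). In MDA-MB-231, 7 fell and 1 rose with siNRP1#5 (29.4% of all genes), including IFNLR1 (-1.62), IFNAR2 (-1.26) and the ISG15 protease USP18 (-1.01), and 5 fell and 0 rose with shNRP1#5 (20.7% of all genes), including IRF9 (-1.05) and STAT2 (-0.90). In siNRP1#3 of that line STAT2 (0.75) and IRF9 (0.86) were higher, while 5 of the 12 fell and 3 rose (25.7% of all genes). In HS578T siNRP1#5, with its MDA-MB-231 marker reads, 4 fell and 1 rose (18.7% of all genes). USP18 (-2.17) and STAT2 (-1.58) fell there and SOCS1 (1.54) rose. With shNRP1#3, 2 fell and 1 rose in MDA-MB-231 (3.65% of all genes), IFNLR1 (-1.1), USP18 (-0.85) and IFNAR2 (0.49). In SUM159PT shNRP1#3, 1 fell (USP18, -1.81, where 1.4% of all genes were called), and 0 were called in HS578T. Of the other double-stranded RNA binding and effector genes (13 of 14 tested), 3 fell in SUM159PT siNRP1#5, the oligoadenylate synthetase genes OAS1 (-3.45) and OAS2 (-2.19) and their relative OASL (-2.62), and 1 rose (17.9% of all genes). The same 3 genes fell in SUM159PT shNRP1#5 (OASL -2.83, OAS2 -2.36, OAS1 -1.92; 5.94% of all genes) and were among the 4 that fell in MDA-MB-231 shNRP1#5 (OASL -1.61, OAS1 -1.09, OAS2 -0.65; 20.7% of all genes). With siNRP1#3, OASL fell as well, in SUM159PT (-2.81, where 2 of the list fell and 1 rose, 8.66% of all genes). In MDA-MB-231 siNRP1#3 it fell by -1.36, where 4 fell and 1 rose (25.7% of all genes). In HS578T siNRP1#5, with its MDA-MB-231 marker reads, 4 rose and 2 fell (18.7% of all genes), led by OAS3 (3.8), OAS2 (2.51) and OASL (2.45). ADARB1, which encodes the second RNA editing enzyme ADAR2, fell with siNRP1#3 in MDA-MB-231 (-0.94) and SUM159PT (-0.99), the groups in which ADAR was called lower. Of 14 sensor partners, at most 5 were called in any knockdown group. In MDA-MB-231, 3 rose and 2 fell with siNRP1#3 (25.7% of all genes), and 1 rose and 4 fell with shNRP1#5 (20.7% of all genes). IKBKE, a kinase related to TBK1, fell in MDA-MB-231 with siNRP1#5 (-1) and shNRP1#5 (-0.75). IKBKE was called higher in HS578T siNRP1#5 (1.80, adjusted p = 0.00177), in the libraries with MDA-MB-231 marker reads. TBKBP1, which encodes a TBK1 binding protein, was called higher in MDA-MB-231 siNRP1#5 (1.42), SUM159PT shNRP1#5 (1.48) and SUM159PT siNRP1#5 (1.09).

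Transcripts of the interferons themselves were scarce. Of 7 interferon genes, only IFNE passed the filter, in HS578T, and it was not called in any knockdown. IFNB1, the type I interferon downstream of IRF3, had at most 2 expected counts and was at 0 in 47 of 52 samples, and IFNL1 had at most 15 counts. IFNA1 and IFNK were at 0 in all 52 samples. A change in these genes was not detectable at this depth.

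The members also differed in how much they varied between replicates and with what. The SD within groups, on the log2 scale, was 0.66 for TLR3, 0.62 for IFIH1, 0.60 for TBK1 and 0.47 for RIGI, but 0.20 for ADAR and 0.23 for IRF3. For each sample a GC score was formed, the median deviation of genes with a GC content up to 41.1% minus that of genes with at least 57.6%. The score drew on all such genes, members included. TBK1, EIF2AK2, TLR3 and RIGI belonged to the low set, and IRF3 and DHX58 to the high set. The sign of their relation was thus largely set by how the score was built. The share of all genes that followed the score was not counted. Over 52 samples, after removal of group means, the level of TBK1 (GC 36.1%) followed the score with Pearson's r = 0.90 and Spearman's rho = 0.92 (permutation p = 1e-05 for each, the smallest 100000 permutations can give, 10 relations tested, adjusted p = 2.5e-05 and 5e-05). Within lines r was 0.86 (SUM159PT), 0.93 (MDA-MB-231) and 0.95 (HS578T), and without the 2 most distant samples it was 0.88. EIF2AK2 (GC 39.2%) behaved alike (r = 0.90, rho = 0.86, both with permutation p = 1e-05 and the same adjusted values; 0.76, 0.96 and 0.95 within lines; 0.87 without the 2 most distant samples). TLR3 had r = 0.67 and rho = 0.54, IRF3, with a GC content of 59%, r = -0.59 and rho = -0.46, and DHX58, with 58.5%, r = -0.25 (permutation p = 0.0707, adjusted 0.0786) and rho = -0.30 (permutation p = 0.0312, adjusted 0.039). ZC3HAV1 (r = 0.53, rho = 0.44), RIGI (0.49, 0.41) and IFIH1 (0.41, 0.31) followed the score too (adjusted permutation p of r = 2e-04, 0.000483 and 0.00429). In MDA-MB-231 r was 0.87 for RIGI and 0.73 for ZC3HAV1, but ZC3HAV1 had -0.03 in SUM159PT. MAVS had r = -0.32 (adjusted permutation p = 0.026) and rho = -0.21 (adjusted 0.158). Samples were permuted over all 52 and not within groups, although the deviations sum to 0 within each group. These permutation p-values may therefore be too small, which matters most for weak relations such as those of MAVS, IFIH1 and DHX58. ADAR showed no such relation (r = 0.04, permutation p = 0.752, adjusted 0.752; rho = 0.15, permutation p = 0.29). With the score as a covariate, the DHX58 and TLR3 calls in MDA-MB-231 siNRP1#5 and the IFIH1, DHX58 and TLR3 calls in shNRP1#5 remained. The ADAR call in SUM159PT siNRP1#3 (-0.76, adjusted p = 0.0513) and the ZC3HAV1 call in MDA-MB-231 siNRP1#5 (-0.30, adjusted p = 0.0609) were lost. Among the calls gained, EIF2AK2 was higher in MDA-MB-231 siNRP1#3 (0.40, adjusted p = 0.00132), RIGI (-0.66, adjusted p = 0.00172) and ZC3HAV1 (-0.45, adjusted p = 0.00932) were lower in MDA-MB-231 shNRP1#5, and TBK1 was higher in MDA-MB-231 with siNRP1#5 than with siNRP1#3 (0.42, adjusted p = 0.00246).

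Genes whose levels resembled those of a member most were found over the 18 group means, after subtraction of the line means, among 16363 genes. RIGI was closest to IFIT3 (r = 0.89), LINC00705 (0.88) and IFIT2 (0.88), and ZC3HAV1 was closest to IFIT3 (0.84), IFIT2 (0.78) and CYP4V2 (0.77). DHX58 was closest to PLBD2, MX2 and TESK2 (0.96 each), TLR3 to CLIP4 (0.92), FHOD3 and SAMTOR (0.91 each), and IFIH1 to RNF103 (0.91), YPEL2 and GABARAPL1 (0.90 each). For TBK1 the closest were COPS2 (0.97), ATG5 (0.95) and PTPN12 (0.94), for EIF2AK2 UEVLD (0.95), NKIRAS1 (0.92) and HDAC8 (0.91), and for ADAR ZNF106 (0.97), ERLIN1 and NUMB (0.94 each). MAVS was closest to ANKHD1-EIF4EBP3 (0.94), AP4S1 (0.93) and DMAP1 (0.92), and IRF3 to HSF1 (0.92), ZNF213 and DUS2 (0.90 each). Among the members, the closest pairs were IFIH1 and DHX58 (0.80), DHX58 and TLR3 (0.77), and RIGI and ZC3HAV1 (0.77), and the most opposed pair was MAVS and TBK1 (-0.63). These group means share libraries, controls and base composition effects, so the values are descriptive.

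ADAR and ZC3HAV1 each make a long and a short protein form, told apart here by the coding length of their transcripts. In ADAR the long form, the interferon-inducible p150, took 5.27 ± 1.76% of the gene's transcripts in MDA-MB-231, 8.28 ± 4.82% in SUM159PT and 8.45 ± 4.22% in HS578T (SD, n = 6 NT samples). The short form of 931 residues, p110, took 64.1 ± 2.68%, 52.1 ± 24.5% and 64.7 ± 3.4%, respectively, and ran from 3.83% to 70.02% in SUM159PT. In the sample with 3.83%, siNT replicate 2, the long form was at 0.02%, so that most ADAR transcripts there were in neither form. In ZC3HAV1 the long form took 49.7 ± 6.18%, 42.9 ± 5.59% and 75.3 ± 8.41%, and the short form of 699 residues 42.1 ± 3.55%, 44 ± 16.8% and 9.34 ± 10.9%. The HS578T samples of the short form ran from 0% to 27.19%, with a mean of 5.77% without the highest, shNT replicate 2. HS578T thus had the lowest ZC3HAV1 level and the highest share of its long form. None of 8 exact two-sided permutation tests of the long-form share, with labels permuted within lines, passed after adjustment. The smallest p were for shNRP1#5, with 5.04 percentage points in ZC3HAV1 (exact permutation p = 0.0205, adjusted 0.164) and -3.03 points in ADAR (exact permutation p = 0.0488, adjusted 0.195). The design could reach a p of 0.00025. With siNRP1#3 the ADAR share changed by -1.51 points (exact permutation p = 0.452, adjusted 0.604), and the lines differed in sign, with HS578T at -5.92 points, MDA-MB-231 at -0.51 points and SUM159PT at 1.89 points.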

How the data were processed

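Per the labels and the study's methods, reads of stranded poly(A) libraries were trimmed (Trim Galore 0.6.5), checked (FastQC 0.11.9), aligned to GRCh38 (STAR 2.7.2b) and quantified with RSEM 1.3.3 by the authors. The deposited files hold expected counts, TPM and isoform percent values per sample. 0 columns lacked a sample. Expected counts were rounded and tested with edgeR 4.0.16 in R 4.3.3 (filterByExpr, TMM, robust quasi-likelihood fit over the 6 groups of a line, or over all 18 groups for lines). P-values were adjusted by Benjamini-Hochberg over all genes tested, with a threshold of 0.05. DESeq2 1.42.0 was an alternative. Levels between genes are TPM, and levels of one gene between samples are CPM. On simulated data (18800 genes, 200 changed by a log2 fold change of 1.5, MDA-MB-231 siNRP1#5 against siNT) 155 changed genes (77.5%) were recovered among 162 calls, and data without changes gave 0 calls.

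The members and lists were chosen with earlier results of these data known. All 10 members and NRP1 are named, and, of each list, up to 3 called genes with the largest change, and of each member the 3 most similar genes. No 2 replicates were copies (chi-square per degree of freedom at least 11 over 50 pairs). Same-numbered samples deviated together (every pair over 0.1) in 4 of 17 comparisons with 3 pairs and in 4 of 4 with 2 pairs, from the data and not from the labels. Alternatives were DESeq2, RLE size factors, no filter on low counts, fits of only the groups compared, a replicate block and leaving out each replicate. Chosen after seeing the data were the GC score, its use with the block, subtraction of SUM159PT reads and leaving out HS578T.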

Additional observations from a re-analysis of the deposited data

Results flagged for a closer look

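For 7 changes the 3 cell lines differed in the edgeR F test of equal knockdown change over all 52 samples. With siNRP1#5 these were RIGI (adjusted p = 5.49e-09), ZC3HAV1 (4.72e-06), TLR3 (0.00124), DHX58 (0.00441) and IFIH1 (0.0129). With siNRP1#3 they were ZC3HAV1 (0.0011) and RIGI (0.029). RIGI was lower with siNRP1#5 in SUM159PT (-2.84), was not called in MDA-MB-231 (-0.22) and was higher in HS578T (3.24), where the libraries held 14% to 26.1% of the MDA-MB-231 marker level. With HS578T left out, the difference between SUM159PT and MDA-MB-231 with siNRP1#5 was still called for RIGI (-2.69, adjusted p = 0.00502) and ZC3HAV1 (-1.42, adjusted p = 0.0161), and not for TLR3 (0.04, adjusted p = 1), DHX58 (-1.66, adjusted p = 0.0509) or IFIH1 (-1.24, adjusted p = 0.175). With siNRP1#3 neither ZC3HAV1 (-0.68, adjusted p = 0.39) nor RIGI (-1.07, adjusted p = 0.381) was then called.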

How the results depend on the processing

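No called change of a member reversed its direction. With RLE size factors 3 in place of 4 calls were made in MDA-MB-231 siNRP1#5 and 8 in place of 9 for HS578T against MDA-MB-231, and no count moved by more than 1.5 times. Fitting only the groups compared gave 0 in place of 5 calls in SUM159PT siNRP1#5, 2 in place of 5 for siNRP1#5 against siNRP1#3 there, 2 in place of 4 in MDA-MB-231 siNRP1#5, 7 in place of 3 in MDA-MB-231 shNRP1#5, 5 in place of 3 for shNRP1#5 against shNRP1#3 there, and 1 in place of 0 for SUM159PT shNRP1#5 against shNT and against shNRP1#3. DESeq2 gave 2 in place of 0 in both of those SUM159PT comparisons, 5 in place of 2 for SUM159PT shNT against siNT, 1 in place of 0 for HS578T siNRP1#3 and shNRP1#5, and 2 in place of 1 for HS578T siNRP1#5 against siNRP1#3. Without the filter on low counts these counts were 4, 3, 6, 1, 1 and 2, with 3 in place of 5 in MDA-MB-231 siNRP1#3, 4 in place of 2 in HS578T siNRP1#5 and 1 in place of 0 for equal change with shNRP1#5. The cause was not tested.

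With the replicate block the counts became 1 in SUM159PT shNRP1#5, 4 for SUM159PT shNT against siNT, 1 for SUM159PT shNRP1#5 against shNRP1#3, 1 in HS578T siNRP1#3, 1 in HS578T shNRP1#5 and 2 for HS578T siNRP1#5 against siNRP1#3, and stayed within 1.5 times elsewhere. The pairs' correlations ranged from -0.21 to 0.61 over 21 comparisons. With the GC score the counts were 2 in SUM159PT shNRP1#5, 1 for shNRP1#5 against shNRP1#3 there, 5 in MDA-MB-231 shNRP1#5, 1 in HS578T siNRP1#3 and 4 for HS578T shNT against siNT. With the score and the block together they were 3, 2, 5, 1 and 4, with 6 for SUM159PT shNT against siNT, 5 for MDA-MB-231 shNRP1#5 against shNRP1#3 and 2 for HS578T siNRP1#5 against siNRP1#3. Subtraction of MDA-MB-231 reads, or of both lines' reads, left 1 of 2 calls for HS578T shNT against siNT. Leaving out HS578T left 0 of 2 and 2 of 5 calls for equal change with siNRP1#3 and siNRP1#5. As a share of long plus short, the ADAR change with shNRP1#3 was 0.12 points in place of -0.69.

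Leaving out 1 replicate gave these ranges of calls. In SUM159PT they were 1 to 3 (siNRP1#3), 3 to 5 (siNRP1#5), 0 to 1 (shNRP1#5), 0 to 4 (shNT against siNT), 1 to 6 (siNRP1#5 against siNRP1#3) and 0 to 1 (shNRP1#5 against shNRP1#3). In MDA-MB-231 they were 3 to 5 (siNRP1#3), 2 to 5 (siNRP1#5), 3 to 3 (shNRP1#5), 2 to 4 (shNT against siNT) and 4 to 6 (siNRP1#5 against siNRP1#3). In HS578T they were 0 to 1 (siNRP1#3), 1 to 2 (siNRP1#5) and 0 to 3 (shNT against siNT). Between lines they were 4 to 5 for SUM159PT against MDA-MB-231 and 8 to 9 for HS578T against either. For equal change they were 0 to 1 (siNRP1#3) and 3 to 6 (siNRP1#5), and the ADAR share with siNRP1#5 ran from -3.24 to 0.12 points.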
